A study of Homo sapiens with 2 samples.

Results

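Keratin genes encode the intermediate filament proteins of epithelial cells, and they were taken as every RefSeq protein-coding gene whose symbol is KRT followed by a number, without the keratin-associated proteins (KRTAP). There were 55 such genes among 20037 protein-coding genes, 27 on chromosome 12 and 28 on chromosome 17. Accessible chromatin was measured by ATAC-seq, in which Tn5 transposase inserts sequencing adapters into open DNA, in cells labelled U2OS, an established human osteosarcoma line. The first library came from cells infected with a short hairpin named sh-VNGD, directed against the long non-coding RNA Vanguard, and the other from cells infected with a control hairpin, sh-ctrl. The cells of both groups were grown in the same serum-containing medium, with 1 library per group and no replicate. Every value is therefore a description of these 2 libraries, and the hairpin cannot be told apart from any other difference between them.

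Keratins work in pairs. A type I keratin, encoded on chromosome 17 except for KRT18, joins a type II keratin, encoded on chromosome 12, and the pairs assemble into filaments that are anchored at desmosomes. Each kind of epithelium has its own pairs: KRT8 with KRT18 in simple epithelia, KRT5 with KRT14 in the basal layer of stratified epithelia, KRT1 with KRT10 in the layers above it, and a large set in hair. Bone-lineage cells and their tumours mainly use vimentin (VIM), although KRT8 and KRT18 can appear in mesenchymal tumour lines.

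The sh-VNGD library had 31326715 tags after removal of repeated positions, against 22931980 in the sh-ctrl library, although 48164322 and 51628228 tags were read. The redundant share was 35% in sh-VNGD and 56% in sh-ctrl. There were 302466 sh-VNGD peaks and 213285 sh-ctrl peaks on the assembled chromosomes, or 9.80 and 6.91 per 100 kb. The library with more kept tags thus had more peaks in all, which bears on every count of peaks found in 1 library only. The label was checked against marker genes. The highest peak of each of 7 mesenchymal and osteoblast markers had a summit pileup, the number of tags covering the summit, of 19 to 96 in sh-VNGD and 11 to 131 in sh-ctrl. The highest peaks of 8 epithelial markers had pileups of 47 to 157 in sh-VNGD and 79 to 163 in sh-ctrl. EPCAM had 108 and 139 tags, CDH1 138 and 163, TP63 47 and 93 and OVOL1 65 and 79. Of the mesenchymal markers, VIM had 91 and 94 tags and RUNX2 96 and 131. Over all genes with a peak, the median of the highest pileup was 73 and 77 tags. Every gene of both lists had a peak in each library, as did 92.4% of all protein-coding genes in sh-VNGD and 90.3% in sh-ctrl. Although the ranges overlapped, both ends were higher for the epithelial list. Gene windows ran from 8.59 to 227 kb in the mesenchymal list and from 5.7 to 305 kb in the epithelial list. Their length was not matched, and a longer window can hold a higher peak. The high peaks at epithelial genes such as EPCAM and CDH1 go against the mesenchymal origin that the label gives. These values cannot settle the origin of the cells, and its part in the keratin values was not tested.

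Keratin genes held peaks less often than protein-coding genes in general. Of the 55 keratins, 41 (74.5%, Wilson 95% interval 61.7 to 84.2) had a sh-VNGD peak between 2 kb before and 2 kb after the gene bounds, and 35 (63.6%, 50.4 to 75.1) had a sh-ctrl peak. Over all protein-coding genes the shares were 92.4% in sh-VNGD and 90.3% in sh-ctrl. Keratin genes are short, and the 2059 genes with windows of 9.22 to 13.4 kb, the middle range of the keratins, had shares of 86.7% and 83.0%. All intervals given here cover counting error only.

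The highest peak of a keratin gene was also low compared with that of other genes. The median of the highest pileup in each keratin with a peak was 23 tags in sh-VNGD and 21 tags in sh-ctrl, compared with 73 and 77 tags over all genes with a peak. A pileup of 30 tags or more was reached in 15 keratins (27.3%) in sh-VNGD and in 13 (23.6%) in sh-ctrl, against 75.2% and 72.8% of all genes. Other clusters of tissue-restricted genes lay on both sides of the keratins. In windows with a median of 5.09 kb, 31.0% of 171 olfactory receptor genes of chromosome 11 had a sh-VNGD peak and 19.3% a sh-ctrl peak. Of 34 KRTAP genes, which lie inside the keratin cluster of chromosome 17 and have a median window of 4.94 kb, 14.7% had a sh-VNGD peak and 8.82% a sh-ctrl peak. All 53 clustered protocadherin genes had peaks in both libraries, in windows with a median of 114 kb. The keratin windows had a median of 10.4 kb, and window length was not matched in these sets.

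In all, 34 keratins had a peak in both libraries, 7 in the sh-VNGD library only, 1 in the sh-ctrl library only and 13 in neither. Over all 20037 protein-coding genes the shares were 89.1% in both, 3.32% in sh-VNGD only, 1.26% in sh-ctrl only and 6.37% in neither. The 7 were KRT3, of cornea, KRT12, its corneal partner, KRT14, of the basal layer, KRT26, of the inner root sheath of the hair, and KRT31, KRT34 and KRT39, of the hair shaft. Their highest sh-VNGD pileup was 26 tags in KRT3 and 11 to 17 tags in the other 6, close to the median of 16 tags over all sh-VNGD peaks. The gene with a sh-ctrl peak only was KRT33B, a hair keratin, at 10 tags. Of the 13 without a peak, KRT6A, KRT6B, KRT6C, KRT74, KRT1 and KRT76 lie on chromosome 12, and KRT20, KRT33A, KRT37, KRT38, KRT13, KRT9 and KRT17 lie on chromosome 17. They include 4 of the 5 keratins of wounded and activated epidermis, KRT6A, KRT6B, KRT6C and KRT17. KRT6A, KRT6B and KRT6C are near-identical in sequence, as are KRT14, KRT16 and KRT17, KRT33A and KRT33B, and KRT81, KRT83 and KRT86, and KRT8 and KRT18 have many processed copies. Reads in them may be shared or lost in alignment, so a missing or low peak there is uncertain.

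**Figure D1:**
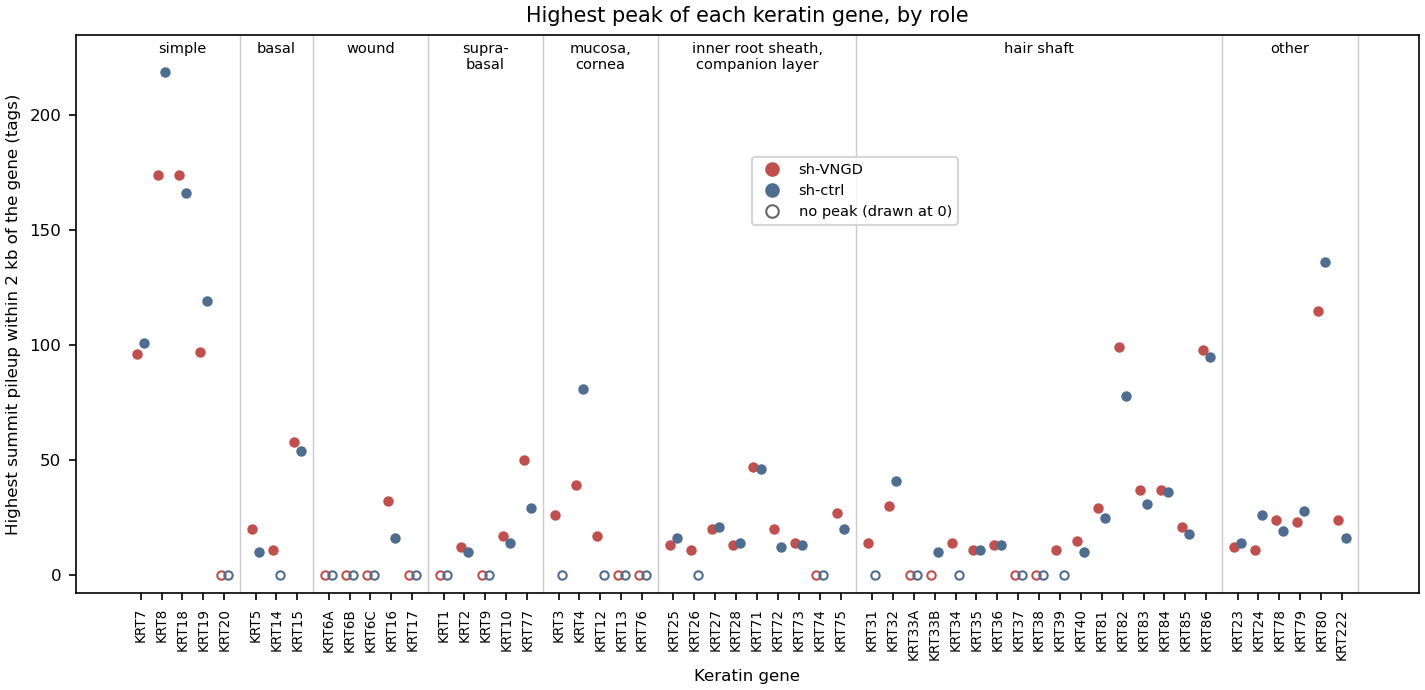
Highest summit pileup within 2 kb of each of the 55 keratin genes (y axis, tags, unscaled), grouped by role along the x axis, with sh-VNGD in red and sh-ctrl in blue. Open circles mark genes without a peak, drawn at 0. KRT7, KRT8, KRT18, KRT19, KRT80, KRT82 and KRT86 stand at 78 tags or more in both libraries, while most other keratins lie at 50 tags or less.

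Grouped by role, the simple-epithelium keratins stood highest. Of KRT7, KRT8, KRT18, KRT19 and KRT20, the first 4 had peaks in both libraries, with a median highest pileup of 135.5 tags in sh-VNGD, against 142.5 in sh-ctrl, while KRT20, the intestinal member, had none. All 3 basal-layer keratins had a sh-VNGD peak and 2 had a sh-ctrl peak. Of the suprabasal keratins, 3 of 5 had a peak in each library. Among the mucosal and corneal keratins the counts were 3 of 5 in sh-VNGD and 1 of 5 in sh-ctrl, among the inner root sheath and companion layer keratins 8 and 7 of 9, and among the hair shaft keratins 13 and 11 of 17. The 6 keratins placed in no such group, KRT23, KRT24, KRT78, KRT79, KRT80 and KRT222, had peaks in both libraries.

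Peaks at keratin gene starts were rarer still. A start site was listed in the RefSeq promoter table (GRCh38.p14) for 34 keratins, and 2 of these, KRT8 and KRT4, had a peak within 500 bp of it, in sh-VNGD and in sh-ctrl alike (5.88%, Wilson 95% interval 1.63 to 19.1). Within 1000 bp the count was 5 in each library. Over 15843 genes with a listed start, 69.4% had such a peak in sh-VNGD and 68.8% in sh-ctrl. On chromosome 17 none of 20 listed keratins had one, which allows a share of up to 16.1% by the Wilson interval. For the other 21 keratins, either outer gene end was used, and 7 had a peak within 500 bp of an end in each library (KRT80, KRT86, KRT18, KRT222, KRT15, KRT19 and KRT16), against 62.4% in sh-VNGD and 59.7% in sh-ctrl of 4194 genes treated in the same way.

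The bases before the start are shown for 4 keratins that span this range. KRT8 and KRT4 had start peaks in both libraries, KRT10 had a peak in its window in both but none at its start, and KRT20 had no peak. Each sequence is the 250 bases before the listed start from RefSeq, build GRCh38.p14, written 5′ to 3′ on the minus strand, on which all 4 genes lie. Capitals mark a match to one of 6 searched motifs on either strand. The KRT8 sequence is chr12:52926470-52926719, that of KRT4 chr12:52814117-52814366, that of KRT10 chr17:40822615-40822864 and that of KRT20 chr17:40885243-40885492.
KRT8: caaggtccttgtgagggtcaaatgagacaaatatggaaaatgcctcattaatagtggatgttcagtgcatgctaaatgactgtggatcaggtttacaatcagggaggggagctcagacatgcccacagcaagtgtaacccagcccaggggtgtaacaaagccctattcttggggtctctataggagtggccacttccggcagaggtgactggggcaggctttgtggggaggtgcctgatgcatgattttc
KRT4: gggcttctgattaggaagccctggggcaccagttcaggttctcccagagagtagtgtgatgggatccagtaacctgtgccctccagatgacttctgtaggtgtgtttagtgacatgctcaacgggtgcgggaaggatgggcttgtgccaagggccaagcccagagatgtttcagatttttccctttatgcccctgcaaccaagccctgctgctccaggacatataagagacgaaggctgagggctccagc
KRT10: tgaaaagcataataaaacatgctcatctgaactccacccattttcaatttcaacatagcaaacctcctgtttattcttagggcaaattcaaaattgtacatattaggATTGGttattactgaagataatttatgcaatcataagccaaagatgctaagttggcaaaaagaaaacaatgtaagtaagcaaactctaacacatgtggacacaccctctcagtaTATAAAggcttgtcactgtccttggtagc
KRT20: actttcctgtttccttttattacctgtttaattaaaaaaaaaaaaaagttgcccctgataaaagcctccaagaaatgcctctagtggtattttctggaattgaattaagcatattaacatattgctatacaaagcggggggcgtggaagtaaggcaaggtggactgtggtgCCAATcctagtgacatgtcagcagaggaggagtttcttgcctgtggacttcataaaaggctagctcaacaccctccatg

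The motifs were the TATA box as TATAAA, the SP1 site as GGGCGG, the CCAAT box as CCAAT, the TEAD site as GGAATG, the AP-1 site as TGANTCA and the grainyhead site as AACCGGTT, searched on both strands. KRT10 held TATAAA beginning 29 bases before the start and a reverse-strand CCAAT, shown as ATTGG, and KRT20 held CCAAT. Neither KRT8 nor KRT4, the 2 with a start peak among the 34 keratins with a listed start, held any of the 6. The 21 keratins without a listed start had no promoter to search. The 34 keratins had 38 listed promoters, and TATAAA was present in 55.3% of these, against 9.0% of 22199 promoters of all genes. On the gene's own strand and beginning 35 to 25 bases before the start, it was present in 16 keratin promoters (42.1%), against 2.96% of all promoters. GGGCGG was present in 10.5% of keratin promoters, against 53.7% of all. The shares for CCAAT were 44.7% in keratins and 32.7% in all genes, and those for GGAATG were 13.2% and 10.5%. TGANTCA was in none of the 38 and in 5.36% of all promoters, and AACCGGTT was in none and in 0.14%. Median GC content was 45% in the keratin promoters and 62% in all promoters. A match to these letters is a description of the sequence and not a site bound in these cells.

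The 2 keratin clusters differed in how open they were. The span from KRT80 to KRT18 on chromosome 12 was 788 kb and held 100 sh-VNGD peaks and 85 sh-ctrl peaks, or 12.7 and 10.8 per 100 kb. The span from KRT222 to KRT17 on chromosome 17 was 974 kb and held 97 and 66 peaks, or 9.96 and 6.78 per 100 kb, close to the whole-genome densities. Peaks covered 5.18% of the chromosome 12 span in sh-VNGD and 4.95% in sh-ctrl, against 3.11% and 2.24% of the chromosome 17 span. The share of keratins with a peak was 21 of 27 in sh-VNGD and 20 of 27 in sh-ctrl on chromosome 12, and 20 of 28 and 15 of 28 on chromosome 17. The Wilson intervals of the 2 clusters overlapped, from 59.2 to 89.4% on chromosome 12 and from 52.9 to 84.7% on chromosome 17 in sh-VNGD, and from 55.3 to 86.8% and from 35.8 to 70.5% in sh-ctrl. Within the gene bounds alone, with no extension, 12 chromosome 17 keratins had a sh-VNGD peak and 9 a sh-ctrl peak.

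Peak height separated the clusters more than peak number. The median peak of the chromosome 12 span had a pileup of 37 sh-VNGD tags or 36 sh-ctrl tags, and that of the chromosome 17 span had 15 or 14. Peaks of 30 tags or more numbered 60 in sh-VNGD and 48 in sh-ctrl on chromosome 12, and 21 and 16 on chromosome 17. The local background that the peak caller fits from the surrounding 10 kb showed the same order. On chromosome 17, 70.1% of sh-VNGD peaks and 65.2% of sh-ctrl peaks stood on the lowest background of their library (1.916 tags for sh-VNGD, 1.4026 for sh-ctrl), against 6.0% and 8.24% of the peaks on chromosome 12. The genome-wide shares were 41.0% in sh-VNGD and 39.6% in sh-ctrl, so the clusters lay on either side of the genome in both libraries. Pileups and background are not corrected for the copy number of the region, and its part in the difference between clusters was not tested.

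**Figure D2:**
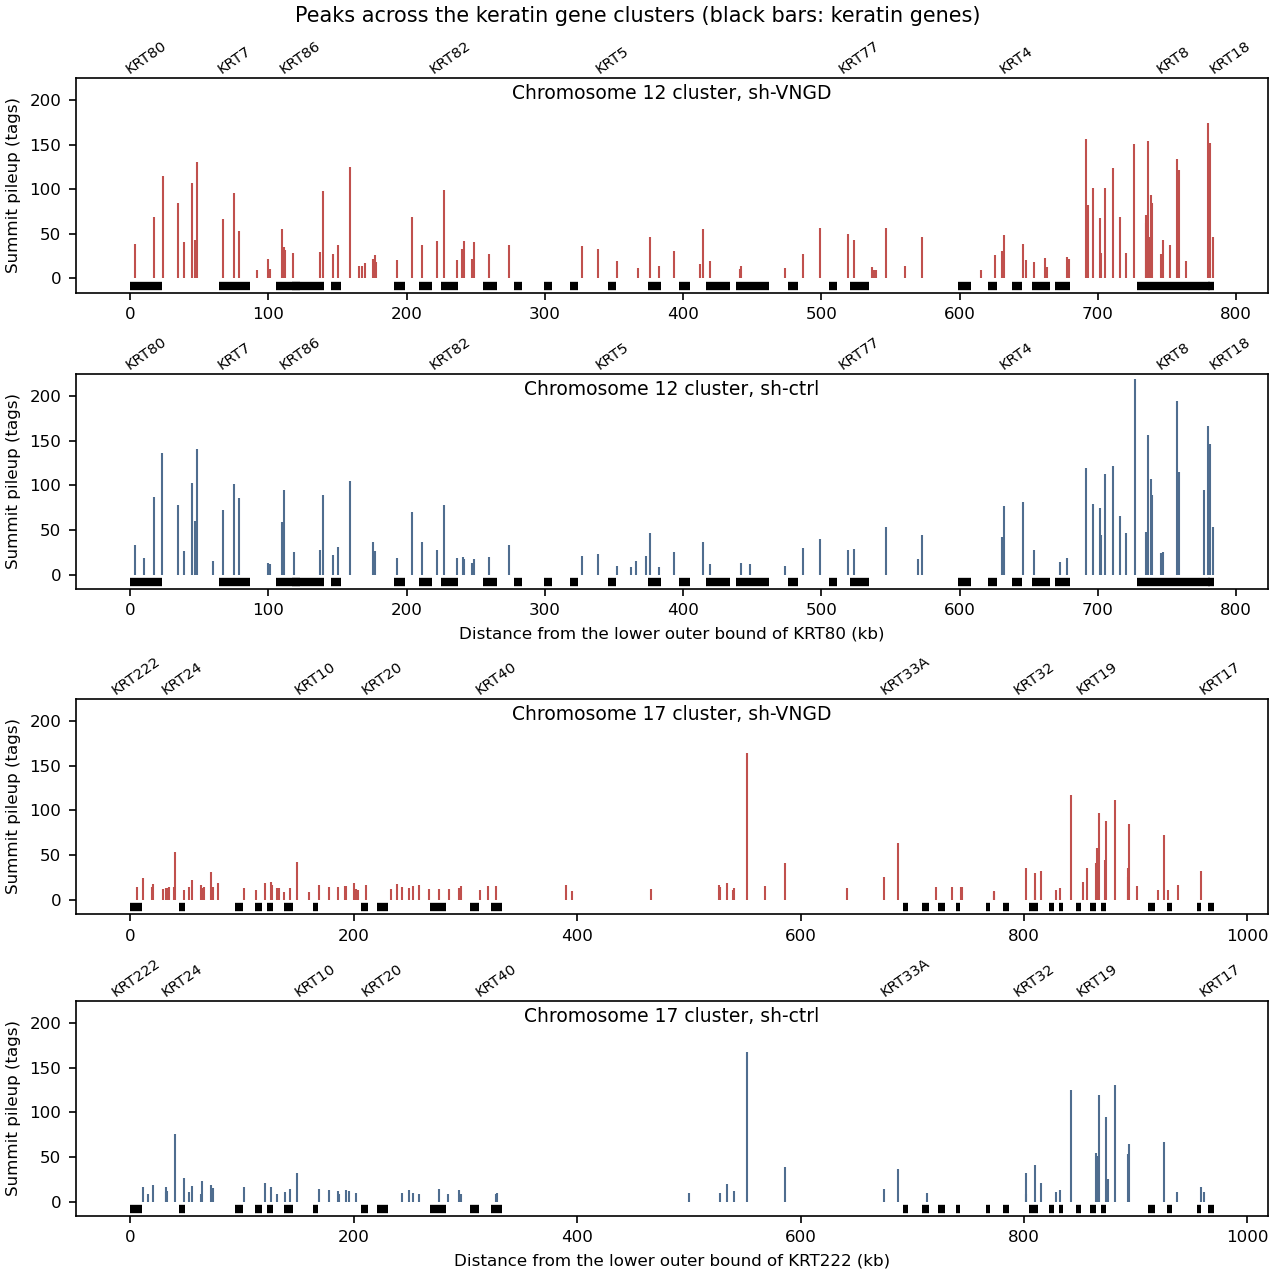
Summit pileup of every peak (y axis, tags, unscaled) along the chromosome 12 cluster (upper pair of panels) and the chromosome 17 cluster (lower pair), with sh-VNGD above sh-ctrl in each pair. The x axis is the distance in kb from the lower outer bound of the first keratin, and black bars are the keratin genes. High peaks gather at both ends of the chromosome 12 cluster and around KRT15 and KRT19 on chromosome 17, while the stretch from KRT222 to KRT40 has low ones.

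Within each cluster, stretches with high peaks stood beside stretches with low ones. The stretches described here were chosen after their values were seen. On chromosome 12, all 8 genes from KRT80 to KRT82, which hold KRT7 and 6 hair keratins besides KRT80, had peaks in both libraries, up to 115 tags in sh-VNGD, against 136 in sh-ctrl. The next 13 genes, from KRT75 to KRT76, include KRT5, KRT1 and the 3 KRT6 genes; 7 had a peak in each library, with a median of 20 tags in sh-VNGD and 13 tags in sh-ctrl, and none exceeded 50 tags in sh-VNGD or 46 in sh-ctrl. The cluster ended with KRT8 and KRT18, where 17 regions reached 174 tags in sh-VNGD, against 219 in sh-ctrl. On chromosome 17, 11 of the 12 genes from KRT222 to KRT40 had a sh-VNGD peak and 8 had a sh-ctrl peak, but these peaks stayed at or under 24 tags in sh-VNGD, against 26 in sh-ctrl, over backgrounds of at most 2.24 and 2.16 tags. KRT15, a basal keratin, and KRT19 next to it reached 97 tags in sh-VNGD, against 119 in sh-ctrl, over backgrounds of up to 14.96 and 17.44 tags. The highest peaks of the chromosome 17 span as a whole, 164 tags in sh-VNGD, against 167 in sh-ctrl, lay outside every keratin window.

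To compare the libraries, overlapping peaks were merged into regions. The keratin windows held 91 of 184086 regions in the windows of all protein-coding genes. Peaks of both libraries were present in 59 keratin regions, against 44.6% of all regions, sh-VNGD peaks only in 23, against 38.5%, and sh-ctrl peaks only in 9, against 16.8%. As shares of the keratin regions these were 64.8%, 25.3% and 9.89%. With the sh-VNGD list limited to its strongest peaks, as many as in sh-ctrl, 13 keratin regions were found in sh-VNGD only and 16 in sh-ctrl only. Which library had more regions of its own thus changed with the length of the lists. The cut itself removes sh-VNGD-only regions and turns shared ones into sh-ctrl-only ones, so it cannot show why the counts differed. On chromosome 12, 41 regions were shared, 10 were found in sh-VNGD only and 5 in sh-ctrl only. On chromosome 17, 18 were shared, 13 were found in sh-VNGD only and 4 in sh-ctrl only.

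For a shared region, the ratio of sh-VNGD over sh-ctrl pileup, after division by each library's kept tags, is given on the log2 scale relative to the median of all 82165 shared regions. In bulk cells a lower ratio may mean fewer cells with the site open or less opening per cell, which cannot be told apart. The median of all shared regions was -0.31 before it was set to 0, and would have been 0.14 with unscaled pileup and 0.24 with scaling to tags read. The median relative ratio was -0.07 over the 59 shared keratin regions, -0.04 over the 41 on chromosome 12 and -0.19 over the 18 on chromosome 17. Single ratios ran from -1.58 to 0.86, with 33 below 0 and 26 above. At least 2-fold lower in sh-VNGD were 3 of the 59 keratin regions, in KRT86, KRT4 and KRT24, against 2.86% of all shared regions. None was at least 2-fold higher, against 2.48%. The exact 95% counting interval lay wholly below 0 for 8 keratin regions (13.6%), against 7.66% of all shared regions. It lay wholly above 0 for 1 (1.69%), in KRT77, against 3.16%. These shares were not matched for height. A mean pileup of 50 tags or more was reached by 22 of the 59 keratin regions, against 19241 of all 82165 shared regions. Taller regions have narrower intervals, and the part of height in these shares was not tested.

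**Figure D3:**
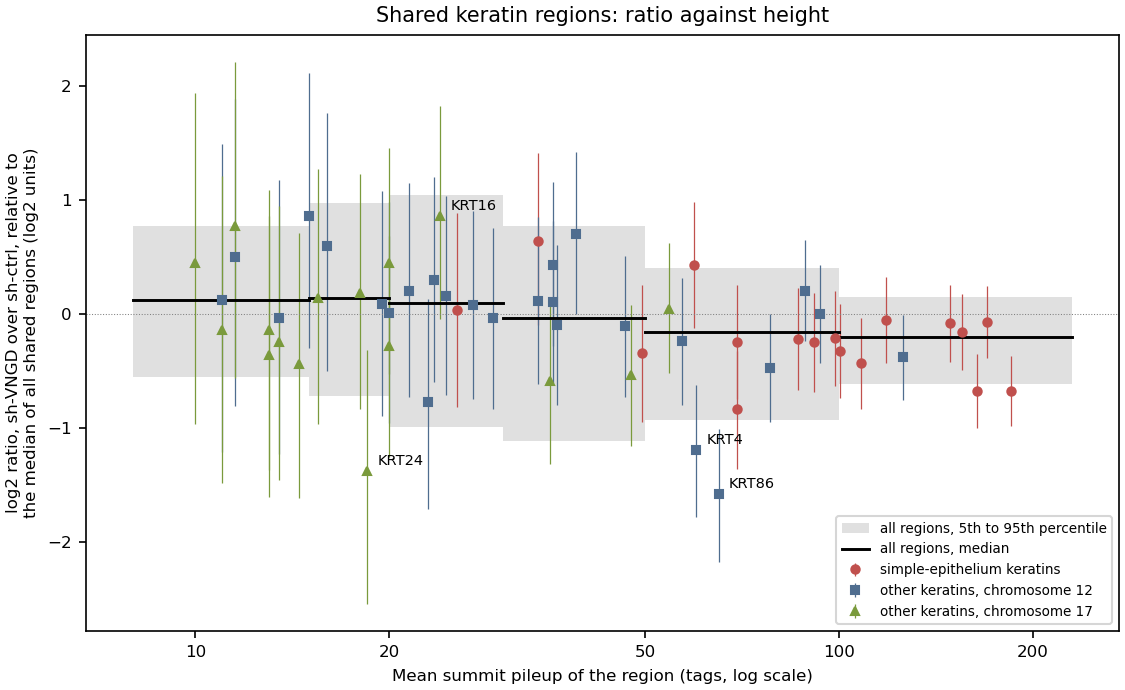
Relative log2 ratio, sh-VNGD over sh-ctrl (y axis), against mean summit pileup of the 2 libraries (x axis, tags, log scale) for the 59 shared keratin regions, with exact 95% counting intervals as vertical lines. Grey bands hold the 5th to 95th percentile of all shared regions in each pileup class and black lines their medians, which run from 0.13 under 15 tags to -0.20 at 100 tags or more. KRT86, KRT4, KRT24 and the 2 KRT8 regions at -0.67 lie under the bands, and most other keratin regions lie inside them.

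The simple-epithelium keratins had lower ratios than the rest, at a height where ratios were lower in general. Their 17 shared regions had a median of -0.22, with 14 below 0, against 0.03 over the 42 shared regions of the other keratins, with 19 below 0. Of the 17, 14 had a mean pileup of 50 tags or more, against 8 of the 42. Over all shared regions the median was -0.15 from 50 to 100 tags and -0.20 at 100 tags or more, and over keratin regions in the same classes it was -0.24 (13 regions) and -0.32 (9 regions). With fold enrichment over local background in place of pileup, the medians were -0.06 in simple-epithelium keratins and -0.06 in the others, a difference of -0.0013, against -0.25 with pileup.

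KRT8, the type II keratin of simple epithelia, has gene bounds of 52.7 kb and held 15 sh-VNGD peaks and 12 sh-ctrl peaks. Its 1 listed start, chr12:52926469, lies inside these bounds, chr12:52897191-52949860. Whether it is the most used start of the gene was not tested, so another KRT8 region may hold the main start. The highest keratin pileup of the sh-ctrl library lay beyond the gene end farthest from the listed start, at chr12:52895115-52896862, with 151 tags in sh-VNGD, against 219 in sh-ctrl, a relative log2 ratio of -0.67 (95% counting interval -0.98 to -0.37). The region over the listed start, chr12:52925777-52926754, which covers all 250 bases printed for KRT8, had 134 tags in sh-VNGD, against 194 in sh-ctrl, also -0.67, with an interval that ended at -0.35. Both were lower in sh-VNGD by more than the counting error. Local background there was lower in sh-VNGD too, 21.5 against 28.6 tags at the far end and 15.2 against 19.1 at the listed start. By fold enrichment the relative ratios were -0.05 and -0.13. Other high regions of KRT8 had intervals that hold 0. A region inside the gene at chr12:52904917-52905415 had 154 tags in sh-VNGD, against 156 in sh-ctrl, -0.16 (-0.49 to 0.17). The neighbour of the start region, at chr12:52927299-52927792, had 122 and 115 tags, -0.05 (-0.43 to 0.33). The weaker inner regions had ratios on both sides of 0, all with intervals that hold 0. They had 94 sh-VNGD tags and 107 sh-ctrl tags (-0.32, -0.74 to 0.09), 84 and 89 tags (-0.22), 27 and 24 tags (0.03), 71 and 48 tags (0.43, -0.12 to 0.99) and 43 and 25 tags (0.64, -0.10 to 1.42).

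KRT18, the type I partner of KRT8, lies next to it on chromosome 12, and 2 regions lie in the windows of both genes. The region over the lower outer bound of KRT18, chr12:52948750-52949214, had 174 tags in sh-VNGD, against 166 in sh-ctrl, the highest keratin pileup of the sh-VNGD library, with a relative ratio of -0.07 (-0.38 to 0.25). The next, chr12:52949632-52950212, had 152 and 146 tags, -0.08 (-0.42 to 0.26). Another region, which lies in the KRT18 window alone, had 46 tags in sh-VNGD, against 53 in sh-ctrl, -0.34 (-0.94 to 0.26). The regions at KRT18 thus did not differ between libraries beyond counting error, which leaves room for differences of up to the bounds given. By fold enrichment the 2 high regions stood at 0.37 and 0.36, since their local background was 23.2 and 23.4 tags in sh-VNGD and 27.2 and 27.4 in sh-ctrl.

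In KRT8, some peaks found in 1 library only were high for their kind. A sh-ctrl peak of 1074 bp and 95 tags at chr12:52945478-52946551 had no overlapping sh-VNGD peak, and the nearest sh-VNGD peak lay 2209 bp away. Only 8 of 31006 sh-ctrl-only regions in gene windows, this one included, were as high. It stood on a local background of 23.6 tags, so the peak was 3.90 times its surroundings. The sh-VNGD library had peaks of its own in KRT8 with 62, 47, 37 and 20 tags, and 39 of 70915 sh-VNGD-only regions reached 62 tags or more. The peak of 62 tags was 277 bp from a sh-ctrl peak and that of 47 tags was 386 bp from one, on backgrounds of 26.3 and 24.2 tags. The absence of a peak is not an absence of tags: where the background is this high, a pileup well above the median of 16 or 15 tags may go uncalled, and the pileup at these places in the other library was not analysed here.

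**Figure D4:**
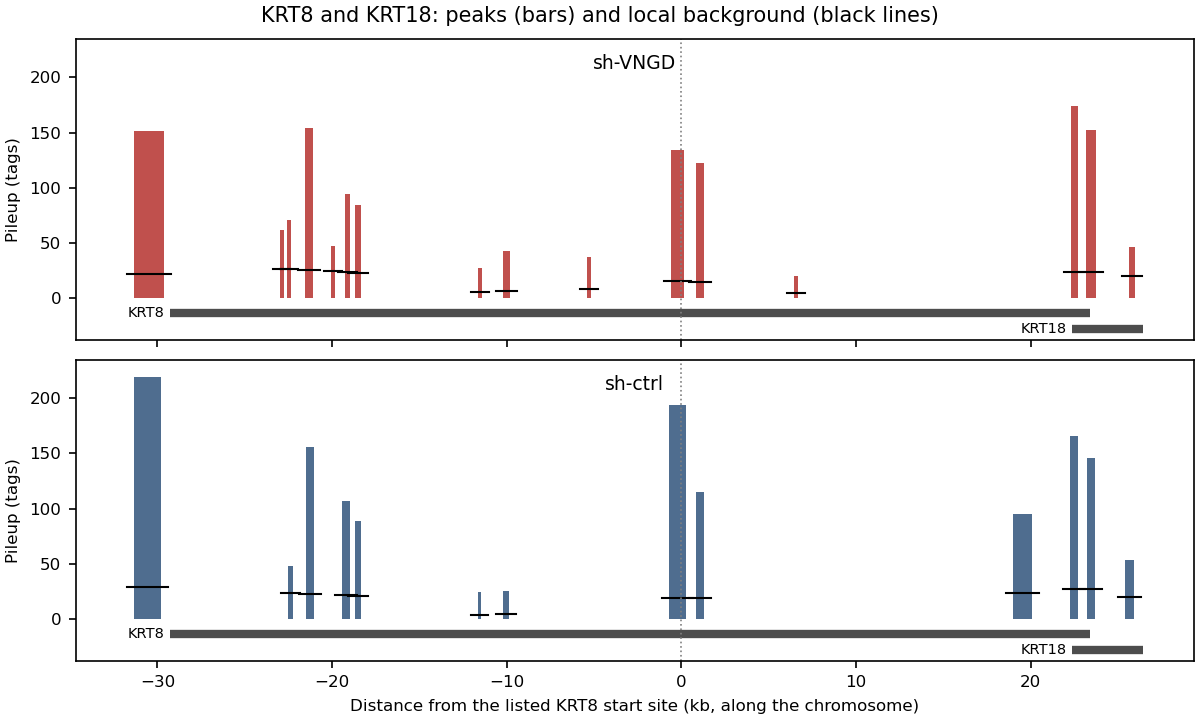
Peaks at KRT8 and KRT18, drawn as bars from start to end with their summit pileup (y axis, tags, unscaled), with sh-VNGD in the upper panel and sh-ctrl in the lower. The x axis is the distance in kb from the listed KRT8 start, short black lines are the local background, and grey bars are the gene bounds. The sh-VNGD bars are lower at the far end (151 against 219 in sh-ctrl) and at the listed start (134 against 194). The bars at KRT18 are level, and the bar of 95 tags is present in sh-ctrl only.

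KRT7, a partner of KRT19 in ductal and glandular epithelia, had 3 regions. At chr12:52247326-52247849 there were 53 tags in sh-VNGD, against 86 in sh-ctrl, a relative ratio of -0.84 (-1.36 to -0.33), and by fold enrichment -0.62. The other 2 had 67 and 96 tags in sh-VNGD, against 72 and 101 in sh-ctrl, and their ratios of -0.24 and -0.21 had intervals that hold 0. KRT19, which lacks the tail of other keratins, had 97 tags in sh-VNGD, against 119 in sh-ctrl at chr17:41521573-41522948, -0.43 (-0.83 to -0.03), and 88 and 95 tags at chr17:41528214-41528652, -0.25 (-0.68 to 0.19). The region with 97 and 119 tags moved to -0.02 by fold enrichment. KRT19 also had a peak of 44 tags in sh-VNGD only and one of 25 tags in sh-ctrl only, 493 and 892 bp from the nearest peak of the other library. KRT20 had no region in its window of 13.4 kb, in sh-VNGD or in sh-ctrl.

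The lowest pileup ratio of a shared keratin region was in KRT86, a type II keratin of the hair shaft. At chr12:52280303-52281211 there were 35 tags in sh-VNGD, in the higher of 2 peaks, and 95 in sh-ctrl, in 1 peak, a relative ratio of -1.58 (-2.18 to -1.005). A ratio as low was found in 387 of 82165 shared regions, or 0.471%. By fold enrichment it was -0.96, since local background was 6.94 tags in sh-VNGD, against 9.30 in sh-ctrl. The other KRT86 regions had ratios from -0.24 to 0.08, each with an interval that holds 0. The nearest to it had 55 tags in sh-VNGD, against 59 in sh-ctrl (-0.24, -0.80 to 0.32), and the highest had 98 and 89 tags (0.00, -0.43 to 0.43). A region of 29 sh-VNGD tags and 25 sh-ctrl tags lay in the windows of both KRT86 and KRT81, another hair keratin.

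KRT4, a type II keratin of the mucosa of mouth and oesophagus, had 1 region, at chr12:52814061-52814966. It covers the listed start and all 250 bases printed for KRT4, and it had 39 tags in sh-VNGD, against 81 in sh-ctrl, -1.19 (-1.78 to -0.62). By fold enrichment the ratio was -0.43, with local background at 3.58 tags in sh-VNGD, against 5.58 in sh-ctrl. KRT13, the type I partner of KRT4, had no peak in either library. KRT24, a type I keratin, had 11 tags in sh-VNGD, against 26 in sh-ctrl at chr17:40702236-40702567, -1.38 (-2.54 to -0.31). By fold enrichment KRT24 stood at -1.12, lower than KRT86. The interval of KRT24 is wide because both counts are low, and 11 tags is under the sh-VNGD median of 16. KRT79, a type II keratin of sebaceous glands and hair follicles, had 18 and 28 tags in its shared region, -0.77 (-1.72 to 0.13), and -0.95 by fold enrichment.

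The 5 highest ratios among regions of 15 tags or more were in KRT5, KRT16, KRT40, KRT77 and the KRT8 region of 43 and 25 tags, all at modest counts. KRT77, a suprabasal keratin, had 50 tags in sh-VNGD, against 28 in sh-ctrl at chr12:52687886-52688254, 0.70 (0.00 to 1.42), the keratin region whose interval lay above 0, with 0.0036 as its lower bound. Its second shared region had 43 and 29 tags, 0.43 (-0.28 to 1.16). KRT5, of the basal layer, had 20 tags in sh-VNGD, against 10 in sh-ctrl, and KRT16, of activated epidermis, had 32 and 16 tags. The relative ratio was 0.86 in each, with intervals from -0.30 to 2.12 in KRT5 and from -0.05 to 1.83 in KRT16. KRT40, a hair keratin, had 15 and 8 tags, 0.77 (-0.56 to 2.21). A ratio of 0.86 or more was found in 4.76% of all shared regions. For KRT5, KRT16 and KRT40 the libraries did not differ beyond counting error.

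In the other keratins, regions of 30 tags or more had ratios from -0.59 to 0.21. KRT80, a type II keratin of widely distributed epithelial cells, had 115 tags in sh-VNGD, against 136 in sh-ctrl at one outer end, -0.38 (-0.75 to -0.01), 69 and 87 tags inside the gene (-0.47, -0.95 to 0.00), and 39 and 33 tags in its other shared region (0.10). Among hair keratins, KRT82 had 99 and 78 tags (0.21, -0.24 to 0.65), KRT83 37 and 31 tags (0.12), KRT84 37 and 36 tags (-0.10) and KRT32 30 and 41 tags (-0.59, -1.32 to 0.13). KRT71, of the inner root sheath, had 47 tags in sh-VNGD, against 46 in sh-ctrl (-0.11). KRT15 had 41 and 54 tags in one region (-0.53, -1.16 to 0.08) and 58 and 51 in the other (0.05). Of these, the interval of KRT80 at its outer end alone lay to one side of 0.

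Of the 91 keratin regions, 8 were found in sh-VNGD only with 20 tags or more, against 4.55% of all regions. In sh-ctrl only there were 3 such regions, against 2.1%. Besides those in KRT8 and KRT19, the sh-VNGD regions were in KRT3 with 26 tags, KRT79 with 23 and KRT78 with 22, and the sh-ctrl region was in KRT71 with 21 tags. KRT3 had no sh-ctrl peak at all, while KRT79, KRT78 and KRT71 each had another region that was shared.

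The genes whose products keratin filaments attach to, and the other intermediate filament genes, have windows of 7.54 to 501 kb, mostly longer than those of keratins. All 14 desmosome genes had a sh-VNGD peak and 13 a sh-ctrl peak, the exception being DSG4, the desmoglein of hair, with 12 tags in sh-VNGD, against none in sh-ctrl. All 6 cytolinker genes had peaks in both libraries. Of 16 other intermediate filament genes, 14 had peaks in each library, and DES, of muscle, and NEFM, of neurons, had none. These shares are near the 92.4% (sh-VNGD) and 90.3% (sh-ctrl) of all protein-coding genes. The median relative ratio of shared regions was -0.16 in desmosome genes, -0.04 in cytolinker genes and -0.18 in other intermediate filament genes, beside -0.07 in keratins. By fold enrichment these medians were 0.02, 0.02 and -0.01, beside -0.06 in keratins. The highest sh-VNGD pileups were in PKP1, which encodes plakophilin 1, with 165 tags in sh-VNGD, against 161 in sh-ctrl, in JUP, plakoglobin, with 160 and 161, and in PKP4, with 150 in sh-VNGD and 125 in sh-ctrl in the same region.

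In the highest region of each partner gene, ratios ran from -1.11 (-1.51 to -0.72) in LMNB1, which encodes lamin B1, with 83 tags in sh-VNGD, against 163 in sh-ctrl, to 0.25 (-0.22 to 0.72) in DSP, desmoplakin, with 90 and 69 tags. PKP2, plakophilin 2, was next lowest with 101 tags in sh-VNGD, against 156 in sh-ctrl, -0.76 (-1.14 to -0.39), and PKP4 next highest at 0.13 (-0.23 to 0.48). LMNB1 was the one partner gene whose highest region was at least 2-fold lower, and none was at least 2-fold higher. VIM, the filament gene of mesenchymal cells, had 91 tags in sh-VNGD, against 94 in sh-ctrl, -0.18 (-0.62 to 0.25). The highest pileups in the KRT8 window were 174 tags in sh-VNGD, at the KRT18 bound, and 219 in sh-ctrl, in another region. That window was 56.7 kb, against 13.4 kb for VIM.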

How the data were processed

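Per the file headers, the authors called peaks with MACS 2.1.0.20150731 on each library separately without a control, shifting tags by 100 bp, extending them to 200 bp, keeping 1 tag per position and using a q cutoff of 0.05. The builds hg38 and GRCh38.p13 and the tools Bowtie2 2.2.5, deepTools and MACS2 2.1.2 are named, with no role, in the submitters' processing notes. The deposited pileup is a signal in whole tags at the summit, not scaled for depth. The deposited fold enrichment is the ratio of pileup to local background, and the deposited −log10 p and −log10 q come from the authors' peak caller, peak by peak.

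Peaks were joined to the RefSeq table of GRCh38.p14, which gives outer gene bounds with neither strand nor exons, and to its promoter table, which gives starts. Both share GRCh38 coordinates with the files. Peaks of both libraries overlapping by at least 1 bp were merged, and the highest peak of each library stood for a region. Local background was recovered from pileup and fold enrichment. Ratios have exact Clopper-Pearson 95% counting intervals, and shares have Wilson intervals. With 1 library per group no test was run.

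Values are given for the simple-epithelium keratins, keratins with a pileup of 30 or more, the 5 highest and 5 lowest ratios at 15 or more tags, and regions of 1 library at 20 or more. The members and lists were chosen with earlier results of these data known. Peaks off the assembled chromosomes were left out. Merging and intervals were tested on simulated data. Python 3.11.15, numpy 2.4.6, pandas 2.3.3 and scipy 1.17.1 were used.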

Additional observations from a re-analysis of the deposited data

How the results depend on the processing

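Of 208 values over 11 alternatives, 188 stayed within 1.5 times for counts or within a counting margin for ratios, and 20 moved. For medians the margin came from pileups summed over regions, so it is not a margin of the median itself. With bounds extended by 10 kb the keratin median went from -0.07 to 0.0, inside its margin of 0.072. The chromosome 12 minus chromosome 17 difference went from 0.15 to 0.03 there and also counted as stayed. The main results gave 86 of the 208 values, of which 75 stayed. Most of the rest were ratios of single regions, where every alternative but fold enrichment kept the pileups and shifted only the common median. Fold enrichment moved those of KRT86, KRT4, KRT8 and KRT18, while those of KRT7, KRT24, KRT16, KRT5 and KRT77 stayed, and KRT19 had both. With only peaks of −log10 q of 5 or more, the KRT24 and KRT5 regions were no longer shared and had no ratio. With equal numbers of peaks, the KRT24 region was not shared either. Where a ratio past 2-fold remained, it did not change sign. Sign changes came in the median of all shared regions, -0.31 as reported but 0.14 unscaled and 0.24 scaled to tags read, and in the KRT18 region of 174 and 166 tags, -0.07 as reported but 0.37 by fold enrichment. Chromosome 17 keratins with a peak numbered 12 in sh-VNGD (20 as reported) and 9 in sh-ctrl (15) with gene bounds not extended, and 24 in sh-ctrl with bounds extended by 10 kb. Keratins with a peak at a listed start numbered 5 in sh-VNGD and 5 in sh-ctrl within 1000 bp, against 2 within 500 bp. With 10 kb, 99 regions were shared, 49 were found in sh-VNGD only and 16 in sh-ctrl only, against 59, 23 and 9. With the sh-VNGD list limited to as many peaks as sh-ctrl had, 13 were found in sh-VNGD only and 16 in sh-ctrl only, so the excess of sh-VNGD-only regions turned round. The difference between simple-epithelium and other keratins was -0.0013 by fold enrichment, against -0.25. The local background of the 2 libraries differs at KRT8, and why was not tested. That background was fitted without a control, from each library's own tags, so pileup and fold enrichment are not independent measures. Scaling to tags read or no scaling leaves relative ratios as they are by construction. No paired analysis was possible because each group had 1 library, and for the same reason no replicate could be left out. Depth limits the low regions of chromosome 17: with 20 sh-VNGD tags and 16 sh-ctrl tags, a KRT27 ratio of 0.18 had an interval from -0.84 to 1.23.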
